A study of Homo sapiens with 18 samples.

Results

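The alpha and beta tubulin isotypes are the closely related proteins from which microtubules are built. The 10 genes described here, the alpha isotypes TUBA1A, TUBA1B, TUBA1C and TUBA4A and the beta isotypes TUBB, TUBB2A, TUBB2B, TUBB3, TUBB4B and TUBB6, were taken by gene symbol from the deposited table of transcript counts. All 10 were found among its 62749 genes, with 87 of its 252048 transcripts, and all 10 passed the filter on low counts. The measurements come from MDA-MB-231, a human triple-negative breast cancer cell line, in 18 stranded mRNA libraries, 3 for each of 6 groups. The groups were unedited cells (WT), cells in which the IMPDH2 gene was knocked out (KO), KO cells grown in 400 µM guanosine, and KO cells into which IMPDH2 had been put back without a named localisation, as a nuclear form or as a cytosolic form. Guanosine was added in that 1 group alone, and 5 of the 6 groups share the knockout background. IMPDH2 catalyses the committed step towards guanine nucleotides, and salvage of guanosine is another route to them. Whether the knockout is 1 clone or a pool, and what drives the returned IMPDH2, is not given in the sources used here, so the knockout and any difference between the edited and unedited cultures cannot be told apart. Nothing in the labels shows that libraries of 1 group came from separate cultures, so p-values measure the spread between these libraries, which may be technical.

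Alpha and beta tubulin fold with the help of prefoldin, the chaperonin CCT and dedicated cofactors, pair into heterodimers, and add to the ends of microtubules. Each subunit binds a guanine nucleotide, and GTP bound to beta tubulin is hydrolysed after the dimer joins the polymer. Cells also sense their own free tubulin: when it is abundant, TTC5 recognises the first residues of tubulin chains emerging from the ribosome and, through SCAPER and the CCR4-NOT deadenylase, has the encoding mRNAs degraded. TUBB, TUBA1B and TUBA1C are the common isotypes of dividing cells, TUBB4B is widespread and is also found in cilia, and TUBA1A, TUBB2A, TUBB2B and TUBB3 are best known from neurons, TUBB3 also from drug-resistant tumours.

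The 18 libraries held between 45865079 and 63276484 estimated counts in all. IMPDH2, the targeted gene, stood between 318.4 and 319.5 CPM (depth-scaled counts, with library sizes adjusted by TMM) in the WT libraries, 41.22 and 42.26 in KO, 22.02 and 22.23 with guanosine, 522 and 542.8 with the unlocalised form, 282.8 and 305.3 with the nuclear form, and 370.5 and 394.7 with the cytosolic form. The fall in KO and the higher level with each returned form were as the labels imply. The transcript left in KO, and its lower level with guanosine, do not follow from the labels. Markers of this line were abundant (VIM 1990 to 2880 TPM), whereas ESR1, PGR, FOXA1 and CDH1 had medians under 1 TPM and EPCAM and KRT19 reached 14.8 and 206 TPM. The summed level of 7 markers of the line was 4970 to 5180 TPM in WT and 3800 to 3890 in KO, and that of 7 luminal or epithelial markers 190 to 224 in WT and 123 to 145 in KO. Of the 4 neuronal markers (RBFOX3, SYP, SNAP25, ELAVL4), 4 had medians under 1 TPM. Their summed level was 2.18 to 2.6 TPM in WT and 0.194 to 0.684 TPM in the other 15 libraries. The part of these 3 sums in the tubulin results was not tested. Mitochondrially encoded genes took 5.18% ± 0.03 (SD, n = 3) of the counts of WT libraries and group means of 7.41% to 7.82% in the knockout-derived groups, and the part of that difference in the results was likewise not tested. Levels are given throughout as the mean ± SD of n = 3 libraries unless an SE is named. A gene is said to have risen or fallen where the quasi-likelihood test of edgeR, adjusted by Benjamini-Hochberg over 19252 genes, gave a value under 0.05.

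The first coding bases are shown because they encode the residues that TTC5 reads, and they are printed for the 5 members whose levels are described in most detail, with the first 12 bases in capitals (GENCODE 29 coding sequences, 5′ to 3′).
TUBA1B: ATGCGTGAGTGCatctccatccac
TUBB: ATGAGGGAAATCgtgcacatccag
TUBB4B: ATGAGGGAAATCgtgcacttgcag
TUBB3: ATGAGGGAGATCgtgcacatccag
TUBB6: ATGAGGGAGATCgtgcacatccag
TUBB and TUBB4B share their first 12 coding bases, and TUBB3 and TUBB6 share all 24 shown here. In KO, TUBB3 rose and TUBB6 fell, with the values given with each gene, and the part of these bases in either change was not tested.

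The coding 3′ ends, which encode the acidic tails where isotypes differ most, show how far reads can tell beta members apart. The last 63 coding bases of 4 of them are printed with the stop codon in capitals.
TUBB2A: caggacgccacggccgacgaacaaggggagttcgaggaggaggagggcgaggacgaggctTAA
TUBB2B: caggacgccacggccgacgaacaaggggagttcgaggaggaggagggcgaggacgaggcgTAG
TUBB: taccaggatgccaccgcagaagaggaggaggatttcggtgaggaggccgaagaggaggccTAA
TUBB3: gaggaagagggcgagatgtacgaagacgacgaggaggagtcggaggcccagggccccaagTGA
TUBB2A and TUBB2B differed at 2 of these 63 positions, and TUBB and TUBB3 at 36. Over aligned coding positions, with gaps left out, identity was 97.2% for TUBA1A with TUBA1B, 97.3% for TUBA1B with TUBA1C and 98.1% for TUBB2A with TUBB2B. The TUBA1C coding sequence used has 1560 bases, and 1350 of them were aligned to the 1356 of TUBA1B. The rest of the TUBA1C sequence is not part of that value. Of the 31-base windows of the main transcript, 72.2% in TUBA1B, 57.5% in TUBA1C, 51.6% in TUBA1A, 70.0% in TUBB2A and 53.6% in TUBB2B also occur in another gene, so the authors' estimation had to divide reads within these pairs and trios. The share was 6.1% for TUBB6, 11.9% for TUBA4A and 19.7% for TUBB4B. For TUBB it was 31.6%, mostly with the pseudogene TUBBP1, which had 0 counts in all 18 libraries. For TUBB3 it was 90.6%, mostly with a readthrough locus over MC1R and TUBB3 that had 0 counts in 14 of 18 libraries and at most 42. Results for TUBA1A, TUBA1B and TUBA1C, and those for TUBB2A and TUBB2B, are therefore uncertain as single genes and are also given as sums.

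The sequence before the gene start is shown for TUBA1B, which fell in KO, and TUBB2A, which did not. These are the 2 members whose window lies ahead of the gene, within 2 bases. In 8 of the 10 members the RefSeq window lies partly or wholly inside the gene's span in GENCODE 29, and in 7 it runs past the start of the main transcript, by 63 (TUBB3) to 244 bases (TUBA1A). Each line is the 250 bases before the gene start in RefSeq (GRCh38.p14), both on the minus strand, at chr12:49131396-49131645 for TUBA1B and chr6:3157545-3157794 for TUBB2A, with matches to the motifs in capitals.
TUBA1B: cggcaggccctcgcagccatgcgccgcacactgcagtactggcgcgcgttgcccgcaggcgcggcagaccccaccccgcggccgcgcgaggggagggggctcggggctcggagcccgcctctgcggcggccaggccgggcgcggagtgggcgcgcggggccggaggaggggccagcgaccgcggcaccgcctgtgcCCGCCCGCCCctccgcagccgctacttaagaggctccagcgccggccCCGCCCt
TUBB2A: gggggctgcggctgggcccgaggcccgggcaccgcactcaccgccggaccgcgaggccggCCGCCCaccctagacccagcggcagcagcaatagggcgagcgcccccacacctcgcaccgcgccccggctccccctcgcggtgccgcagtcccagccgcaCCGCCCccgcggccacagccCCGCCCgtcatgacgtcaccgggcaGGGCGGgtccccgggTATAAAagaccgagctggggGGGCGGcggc
The motifs were searched on both strands, and overlapping matches were each counted: the CCAAT box by its own letters, the GC box as GGGCGG, the TATA box as TATAAA, the cell cycle element CHR as TTTGAA and the E-box as CACGTG. The TUBA1B window held 3 GC boxes, 2 of them overlapping, and the TUBB2A window held 5 GC boxes and 1 TATA box. All 10 members matched a RefSeq window of this length, and the counts that follow therefore include transcribed sequence and are not counts of promoter motifs alone. A CCAAT box occurred in 7 of the 10 and in 32.0% of the 35116 windows in the table, and a GC box in 7 of the 10 and in 42.6%. A CHR element occurred in 2 (TUBA1C and TUBB4B) and in 13.3%, a TATA box in 1 and in 10.7%, and an E-box in 0 and in 6.3%. TUBB4B held 3 CCAAT boxes, TUBA1A held 2, and TUBA1C, TUBB, TUBB2B, TUBB3 and TUBB6 held 1 each.

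The most abundant tubulin transcripts fell together in KO cells and were higher again with guanosine or with IMPDH2. In KO against WT, 7 of 10 members fell (TUBA1A, TUBA1B, TUBA1C, TUBA4A, TUBB, TUBB4B, TUBB6) and 3 rose (TUBB2A, TUBB2B, TUBB3). Their median log2 fold change was -0.61, against 0.01 over all genes tested. This comparison differed broadly: 72.7% of all genes tested passed, 36.8% of all genes tested fell and 35.9% rose (7084 and 6912 genes). With library totals in place of TMM, the median over all genes moved from 0.007 to 0.168 and the split became 5485 lower and 8765 higher, while all 10 members kept their direction and their call. Summed per unit length, alpha tubulin fell from 2549.8 ± 47.4 TPM in WT to 1245.0 ± 34.0 in KO, and beta tubulin from 1936.1 ± 26.0 to 1220.6 ± 15.8. In bulk libraries, fewer transcripts per cell and a smaller share of cells with them cannot be told apart.

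**Figure D1:**
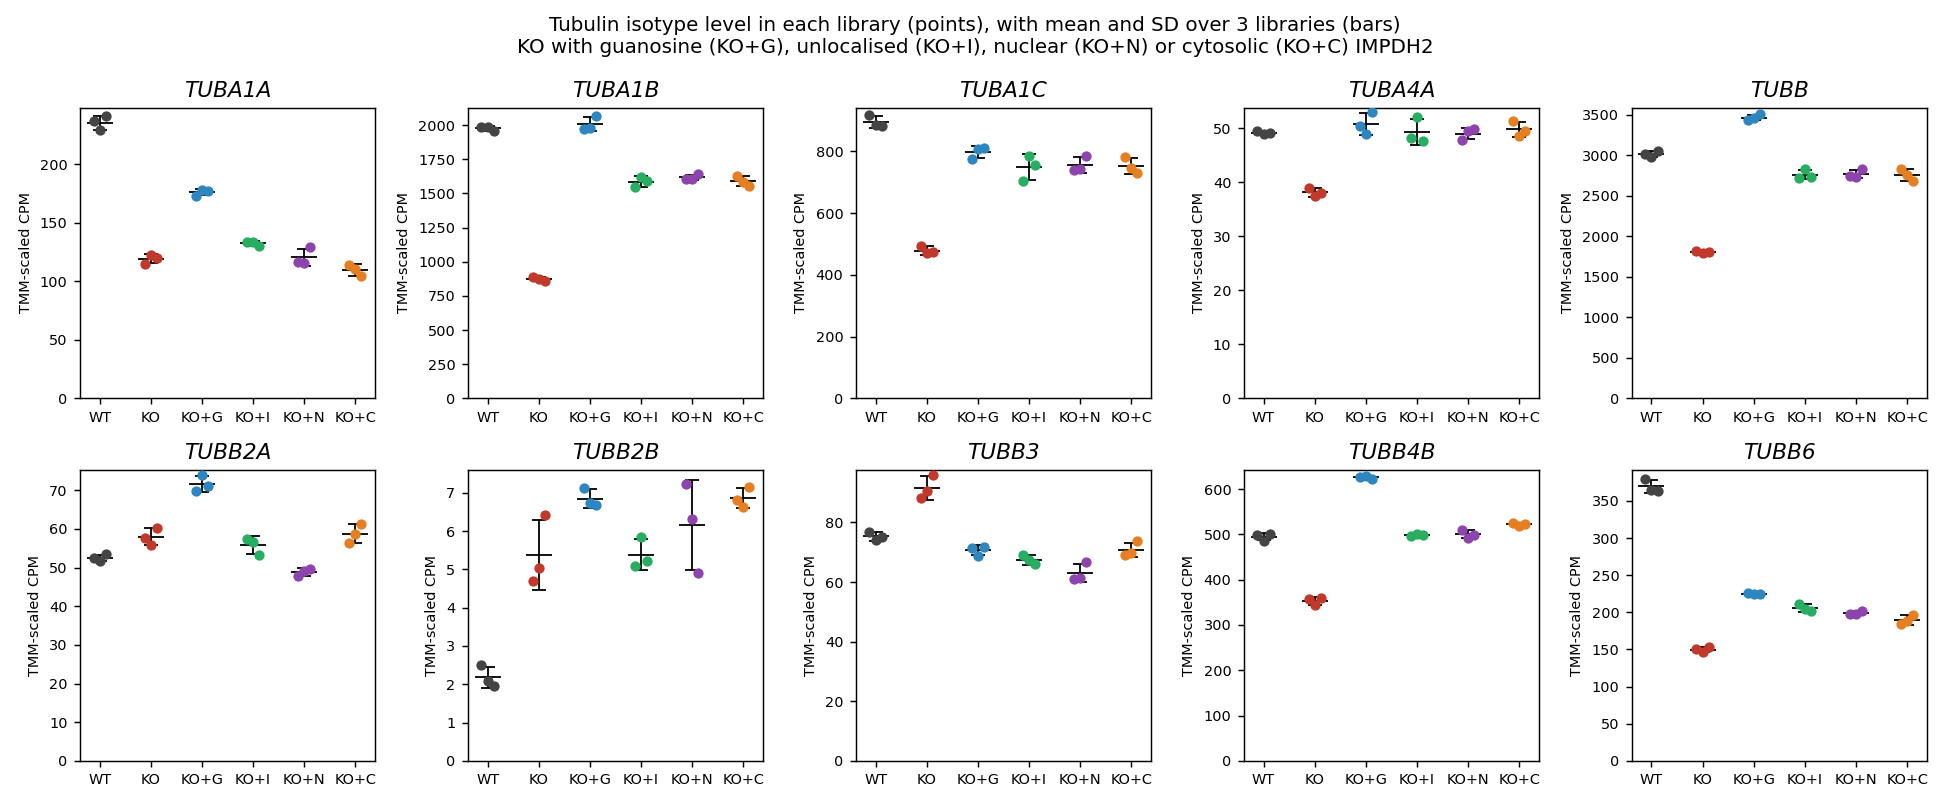
TMM-scaled CPM (vertical axes, from 0) of each tubulin gene in the 3 libraries of each group (points), with the mean and SD as bars. In TUBA1B, TUBA1C, TUBA4A, TUBB, TUBB4B and TUBB6 the 3 KO libraries are the lowest of all 18, and in TUBB3 they are the highest. The share of all genes with the KO libraries at such an extreme was not counted.

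TUBA1B (ENSG00000123416.15, minus strand of chromosome 12, 49127782 to 49131397 in GRCh38), the common alpha isotype of dividing cells, fell most among the alpha members. Its level was 1988, 1988 and 1956 CPM in the WT libraries and 890.2, 874.7 and 860.7 CPM in KO, that is 44.3% of the WT mean. With guanosine it was 1974, 1979 and 2068 CPM, overlapping WT. The log2 fold change was -1.18 ± 0.025 (SE, adjusted p = 2.15e-17) in KO against WT and 1.20 ± 0.025 (adjusted p = 1.53e-16) with guanosine against KO. Guanosine against WT gave 0.02, with a 95% interval of -0.03 to 0.07 and adjusted p = 0.465. That comparison did pass, with TUBA1B above WT, with library totals (log2 0.12, adjusted p = 0.000223) and with protein-coding transcripts alone (0.07, 0.0166). With IMPDH2 put back the level was intermediate: 1550 to 1623 CPM for the unlocalised form, 1604 to 1640 for the nuclear form and 1556 to 1630 for the cytosolic form, between 80.3% and 81.8% of WT. These 9 libraries lay above all KO and below all WT libraries.

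TUBA1C (ENSG00000167553.17, plus strand of chromosome 12, 49188736 to 49274603) was likewise lowest in KO and intermediate with IMPDH2, but with guanosine it stayed below every WT library. It was 883.3 to 919.1 CPM in WT, 469.6 to 494.1 in KO and 774.8 to 809.8 with guanosine. The 9 reconstituted libraries ranged from 702.6 to 786.1 CPM and overlapped those with guanosine. KO was 1.87-fold lower than WT (log2 -0.90 ± 0.038, adjusted p = 2.22e-13), and guanosine raised it by 0.74 ± 0.038 (log2, adjusted p = 1.7e-11). The call of TUBA1C below WT with guanosine was lost with library totals (log2 -0.07, adjusted p = 0.0923).

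TUBA1A (ENSG00000167552.15, minus strand of chromosome 12, 49184796 to 49189324), best known as the alpha isotype of developing neurons, did not come back in the same way. Its level was 236.6, 228.9 and 240.8 CPM in WT and 114.9, 122.7 and 120.2 in KO (log2 -0.98 ± 0.039, adjusted p = 9.17e-14). With guanosine it was 173.2, 178.1 and 177.3 CPM, 74.8% of WT, above KO by 0.56 ± 0.039 (log2 ± SE, adjusted p = 9.18e-10) and clear of both groups. With the unlocalised form it reached 129.8 to 133.6 CPM (log2 0.15 against KO, adjusted p = 0.00385), a call that was lost with library totals (log2 0.07, adjusted p = 0.123). The nuclear form gave 115.6 to 129 CPM, overlapping KO (log2 0.01, 95% interval -0.07 to 0.10). The cytosolic form gave 104.2 to 113.9 CPM, below KO (log2 -0.12 ± 0.04, adjusted p = 0.0155), but without KO library 2 or cytosolic library 3 the adjusted p was 0.0731 or 0.0762. The sum of TUBA1A, TUBA1B and TUBA1C, which does not depend on how reads were divided among them, was 3109 ± 32.5 CPM in WT, 1473 ± 23.5 in KO, 2980 ± 68.2 with guanosine and 2451 to 2493 CPM (group means) with the 3 forms.

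TUBA4A (ENSG00000127824.15, minus strand of chromosome 2, 219249711 to 219278170), an alpha isotype abundant in platelets, was a minor member. It was 48.98 to 49.44 CPM in WT and 37.37 to 38.95 in KO, and lay between 47.71 and 53.03 CPM in all 12 remaining libraries. It fell by 0.37 ± 0.037 on the log2 scale in KO (adjusted p = 5.21e-08). It did not pass the test in any of the 4 comparisons of a treated or reconstituted group with WT, where the log2 fold changes ran from -0.01 to 0.04.

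TUBB (ENSG00000196230.14, plus strand of chromosome 6, 30720201 to 30725426), the common beta isotype, had the highest beta level. It was 3016, 2982 and 3055 CPM in WT and 1825, 1797 and 1804 in KO, 59.9% of WT. With guanosine it was 3439, 3456 and 3505 CPM, above every WT library. The forms of IMPDH2 gave 2720 to 2829 CPM (unlocalised), 2734 to 2832 (nuclear) and 2683 to 2829 (cytosolic), below every WT library. The log2 fold change was -0.74 ± 0.022 (adjusted p = 2.24e-15) in KO against WT, 0.94 ± 0.023 with guanosine against KO (adjusted p = 6.55e-16) and 0.20 ± 0.022 with guanosine against WT (adjusted p = 3.05e-07).

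TUBB4B (ENSG00000188229.6, plus strand of chromosome 9, 137241213 to 137243707) was 497.8, 486 and 501.5 CPM in WT, 357.8, 343.7 and 360.2 in KO, and 625.8, 628 and 623.4 with guanosine. Guanosine thus placed it above every other library, at 126% of the WT mean. The log2 fold change was -0.48 ± 0.021 in KO against WT (adjusted p = 3.57e-13) and 0.34 ± 0.021 with guanosine against WT (adjusted p = 1.04e-10). With the unlocalised and the nuclear form it overlapped WT (log2 0.01 for both), and with the cytosolic form it was slightly higher than WT (log2 0.08 ± 0.021, adjusted p = 0.00353). Under 3 of 14 alternatives the unlocalised and the nuclear form were called higher than WT too. These were library totals (log2 0.09 for both, adjusted p = 0.00106 and 0.000889), the length offset and protein-coding transcripts alone.

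TUBB6 (ENSG00000176014.13, plus strand of chromosome 18, 12307669 to 12344320), a beta isotype of non-neuronal tissues, showed the largest fall among the members that fell and stayed well below WT in every knockout-derived group. It was 379.9, 365 and 363.6 CPM in WT and 150.1, 146 and 153.3 in KO, 40.5% of WT (log2 -1.30 ± 0.027, adjusted p = 2.24e-17). With guanosine it was 225.5, 224.8 and 224 CPM, 60.8% of WT. The forms of IMPDH2 gave 201.6 to 211.5 CPM (unlocalised), 197.5 to 201.8 (nuclear) and 184.1 to 196.5 (cytosolic), between 51.4% and 55.8% of WT. It rose against KO in all 4 groups, by log2 0.34 to 0.59. Against WT it was lower by log2 -0.72 with guanosine and -0.84 to -0.96 with the 3 forms (adjusted p at most 9.34e-14).

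TUBB3 (ENSG00000258947.8, plus strand of chromosome 16, 89921392 to 89938761) ran the other way. It was 76.97, 74 and 75.22 CPM in WT and 88.08, 90.7 and 95.82 in KO, where each library was above all 15 others. It was 68.85 to 71.89 CPM with guanosine, 65.94 to 69.18 for the unlocalised form, 61.03 to 66.6 for the nuclear form and 69.05 to 73.63 for the cytosolic form. The log2 fold change was 0.28 ± 0.038 in KO against WT (adjusted p = 2.37e-06). Against KO it fell in each of the other 4 knockout-derived groups, by -0.37 with guanosine, -0.44 for the unlocalised form, -0.54 for the nuclear form and -0.37 for the cytosolic form (adjusted p at most 1.94e-07). Guanosine and the cytosolic form also left it below WT by 0.09 on the log2 scale (adjusted p = 0.0418 and 0.0424), but those 2 calls were lost under 11 of 14 alternatives each, among them the omission of WT library 1 (adjusted p = 0.223 and 0.233) or 3 (0.128 and 0.132). TUBB3 was below WT with the other 2 forms as well. That call was lost under 2 of 14 alternatives for the unlocalised form (log2 -0.17 to -0.08). For the nuclear form it was lost under 0 of 14 (log2 -0.28 to -0.18).

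TUBB2A (ENSG00000137267.7, minus strand of chromosome 6, 3153669 to 3157526) changed little in KO. It was 51.74 to 53.43 CPM in WT and 55.94 to 60.33 in KO (log2 0.14 ± 0.037, adjusted p = 0.00214). It was highest with guanosine, at 69.74 to 73.94 CPM (log2 0.30 ± 0.037 against KO, adjusted p = 1.29e-06). The nuclear form gave 47.89 to 49.7 CPM, below every other library, while the unlocalised (53.19 to 57.52) and the cytosolic form (56.46 to 61.18) overlapped KO.

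TUBB2B (ENSG00000137285.11, minus strand of chromosome 6, 3224261 to 3231730) was the least abundant member. It had 98 to 133 counts per library in WT (1.959 to 2.499 CPM) and 261 to 405 in KO (4.689 to 6.411 CPM), a 2.47-fold higher fitted level (log2 1.30 ± 0.14, adjusted p = 1.22e-07). It remained higher than WT in every knockout-derived group, by log2 1.30 to 1.65. Its rises against KO with guanosine (log2 0.35, adjusted p = 0.0287) and with the cytosolic form (log2 0.35, adjusted p = 0.03) were lost when KO library 1 (adjusted p = 0.125 and 0.122) or KO library 2 (0.0973 and 0.101) was left out, and reversed when protein-coding transcripts alone were counted (log2 -0.09 and -0.08). Other single libraries ended these calls too, namely any of the guanosine libraries (adjusted p 0.0511 to 0.089) and cytosolic library 1 or 3 (0.062 and 0.0859). TUBB2A and TUBB2B together gave 54.68 ± 0.797 CPM in WT, 63.38 ± 3 in KO and 78.46 ± 1.98 with guanosine, values that do not depend on how reads were divided between them. The sum was 61.19 ± 2.39 CPM with the unlocalised form, 65.67 ± 2.53 with the cytosolic form, and 55.01 ± 0.37 with the nuclear form, where it overlapped WT.

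Most tubulins rose against KO whether guanosine or IMPDH2 was supplied. With guanosine, 9 of 10 members rose and 1, TUBB3, fell, with a median of 0.57 (all genes -0.02). Over all genes tested, 56.5% passed, 27.3% higher and 29.2% lower. With the unlocalised form, 7 rose, 1 fell and 2 did not pass the test (median 0.42; 50.8% of all genes passed, 25.7% higher and 25.1% lower). With the nuclear form, 6 rose, 2 fell and 2 did not pass (median 0.39; 53% of all genes, 26.1% higher and 26.9% lower), and with the cytosolic form, 7 rose, 2 fell and 1 did not pass (median 0.37; 50.6% of all genes, 24.6% higher and 26% lower). With library totals in place of TMM, the genes higher and lower became 3543 and 6505 (unlocalised), 3653 and 6773 (nuclear) and 3266 and 6876 (cytosolic), from 4944 and 4836, 5033 and 5180, and 4741 and 5010. These 4 comparisons share the KO libraries, so their values are side by side and are not independent. TUBA1B, the member with the largest rise in all 4, gave log2 1.20, 0.86, 0.89 and 0.86, and TUBB gave 0.94, 0.61, 0.62 and 0.61, in the same order of groups.

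The difference between guanosine and the unlocalised form was tested directly, in a comparison added after the data had been seen. With guanosine, 7 of 10 members were higher, 0 were lower and 3 did not pass, where 37.6% of all genes passed, 18.6% higher and 18.9% lower. TUBA1A was higher by log2 0.41, TUBB2A by 0.36, TUBB2B by 0.35, TUBA1B by 0.34, TUBB and TUBB4B by 0.33 each and TUBB6 by 0.13. TUBB2B lost that call with any guanosine library (adjusted p 0.0719 to 0.118) or with unlocalised library 1 or 3 (0.132 and 0.111) left out. TUBA1C (0.09, 95% interval 0.01 to 0.17), TUBA4A (0.04, -0.04 to 0.12) and TUBB3 (0.07, -0.01 to 0.15) did not pass. TUBA1C did pass without unlocalised library 2 (adjusted p = 0.0225).

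**Figure D2:**
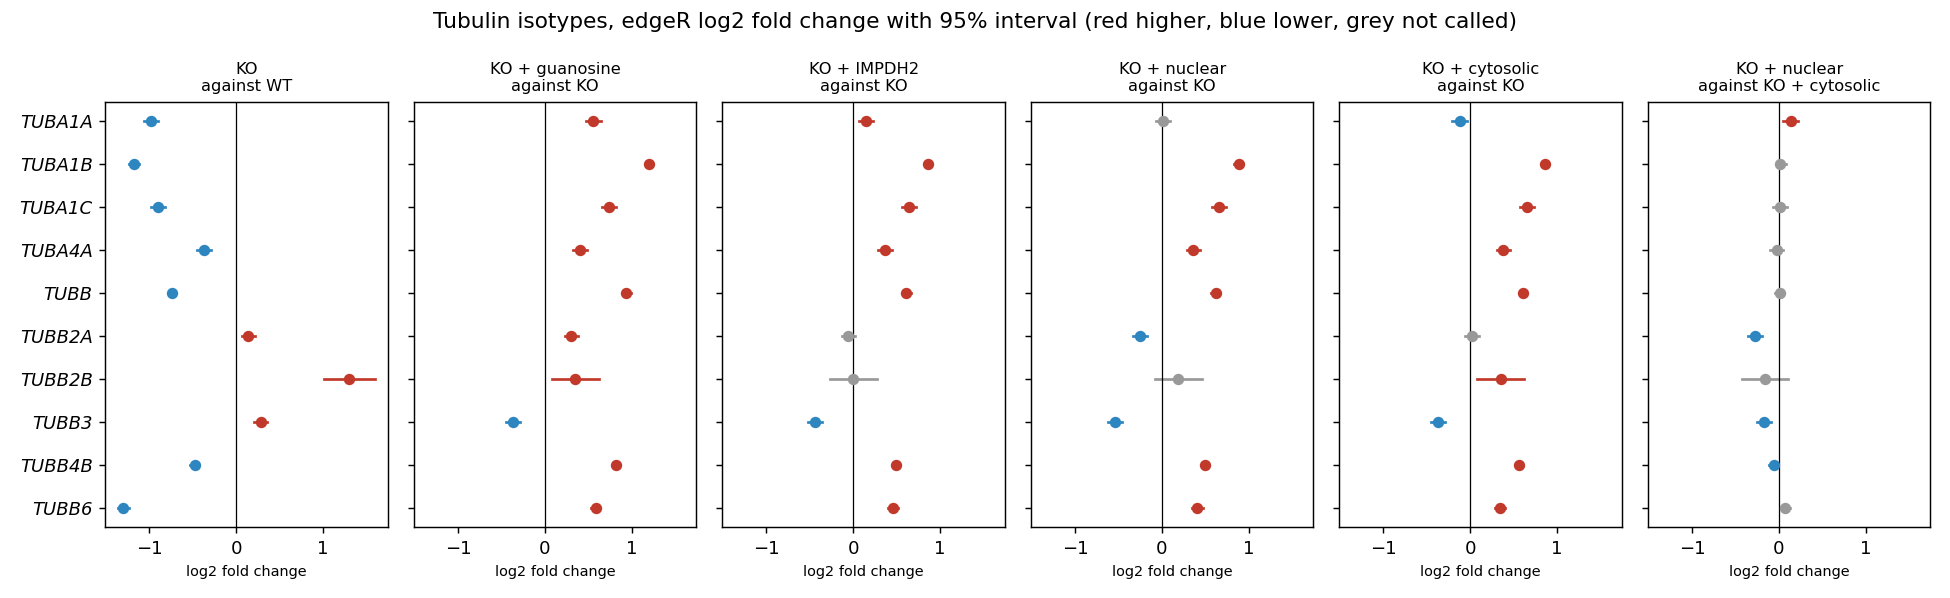
Log2 fold change (horizontal axes) of each tubulin gene in 6 comparisons, with its 95% interval; red is higher, blue lower and grey not past the test. TUBB3 is the 1 member that is higher in KO against WT and lower in all 4 comparisons with KO, and the interval of TUBB2B is the widest.

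Set against WT, the treated and reconstituted groups kept different members away from the WT level. With guanosine, 4 members were higher (TUBB, TUBB2A, TUBB2B, TUBB4B), 4 lower (TUBA1A, TUBA1C, TUBB3, TUBB6) and 2 did not pass, where 63.9% of all genes passed, 31.1% higher and 32.9% lower (5978 and 6329; 7458 and 5224 with library totals). With the unlocalised form, 2 were higher and 6 lower (64.5% of all genes passed, 31.1% higher and 33.4% lower). With the nuclear form, 1 was higher and 7 lower (65% of all genes, 31.5% higher and 33.6% lower), and with the cytosolic form, 3 were higher and 6 lower (67.6% of all genes, 32.9% higher and 34.7% lower). With library totals, the genes higher and lower became 7244 and 5452, 7279 and 5515, and 7331 and 5878 for the 3 forms, from 5982 and 6435, 6063 and 6460, and 6330 and 6686. TUBA1A and TUBB6 were lower and TUBB2B was higher than WT in all 5 knockout-derived groups. Those 5 comparisons share the WT libraries and are not independent. The share of all genes called the same way in all 5 was not counted. The calls for TUBB2A with the unlocalised form (log2 0.09, adjusted p = 0.0491) and with the nuclear form (log2 -0.10, adjusted p = 0.0228) were lost when single libraries were left out: unlocalised library 1 or 2 or WT library 1 or 2 for the former (adjusted p 0.054 to 0.128), and any nuclear library or WT library 1 or 3 for the latter (0.0597 to 0.158).

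The nuclear and the cytosolic form differed in 4 members, all by less than 0.3 on the log2 scale. TUBA1A was higher with the nuclear form (log2 0.14 ± 0.04, adjusted p = 0.0185), and TUBB2A (-0.27 ± 0.037, adjusted p = 4.48e-05), TUBB3 (-0.17 ± 0.038, adjusted p = 0.00357) and TUBB4B (-0.06 ± 0.021, adjusted p = 0.0367) were lower. Over all genes tested, 23.9% passed, 13.4% higher and 10.5% lower. For the abundant TUBA1B and TUBB the differences were 0.02 (95% interval -0.03 to 0.08) and 0.01 (-0.04 to 0.06). The TUBA1A call was lost without nuclear library 3 (adjusted p = 0.123) or cytosolic library 3 (0.0923). The TUBB4B call was lost without any cytosolic library or nuclear library 2 or 3 (0.0655 to 0.16). Without cytosolic library 3, TUBB6 passed (log2 0.09, adjusted p = 0.0237).

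Levels per unit length (TPM) put TUBA1B first among the alpha members and TUBB first among the beta members in every group. In WT the order was TUBA1B (1714 ± 45.4 TPM), TUBB (1195 ± 20.8), TUBA1C (614.4 ± 3.34), TUBB6 (344.3 ± 4.11), TUBB4B (313.1 ± 7.79), TUBA1A (156.9 ± 4.03), TUBA4A (64.13 ± 1.22), TUBB3 (50.39 ± 1.54), TUBB2A (31.92 ± 1.15) and TUBB2B (1.084 ± 0.127). The libraries of neighbouring genes in that order did not overlap. In KO the gap at the top narrowed, with TUBA1B at 778.3 ± 22.7 TPM and TUBB at 728.9 ± 9.23, and TUBB4B (232.7 ± 2.77) stood above TUBB6 (154.1 ± 1.57). The ratio of summed alpha to summed beta TPM was 1.317 ± 0.028 in WT, 1.02 ± 0.02 in KO, 1.172 ± 0.026 with guanosine and 1.204 to 1.208 (group means) with the 3 forms. The KO libraries (1.001 to 1.041) lay below, and the WT libraries (1.286 to 1.34) above, all others. These TPM sum all annotated transcripts of a gene, short ones included. In WT, a 565-base transcript gave 396.293 TPM of TUBA1B and a 524-base one 133.131 TPM of TUBB6. By main transcript alone, TUBB (724.173 TPM) stood above TUBA1B (550.861) in KO, and TUBB4B (310.704) above TUBB6 (175.682) in WT. The order above thus depends on which transcripts are summed, and their part in the ratio was not tested.

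The make-up of each pool shifted with these levels. TUBA1B held 67.23% ± 0.53 of alpha TPM in WT, 62.51% ± 0.27 in KO and 70.02% ± 0.40 with guanosine. TUBB3 held 2.60% ± 0.07 of beta TPM in WT, 5.32% ± 0.19 in KO and 2.26% ± 0.04 with guanosine. TUBB6 held 17.78% ± 0.43 of beta TPM in WT, and group means of 10.38% to 12.62% in the knockout-derived groups. These shares are given as a description, since each rests on levels already tested and on the same sums over transcripts.

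**Figure D3:**
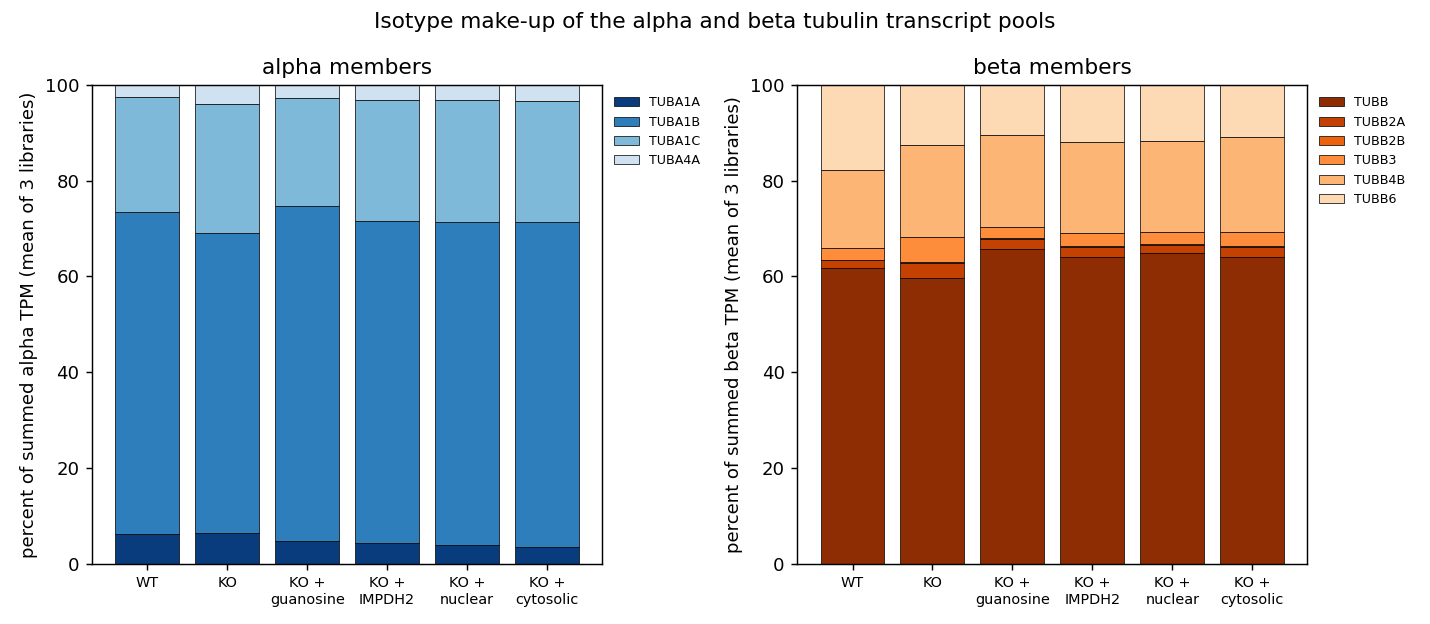
Percent of summed alpha TPM (left) and summed beta TPM (right) held by each isotype, as means of 3 libraries per group. TUBA1B and TUBB hold the largest parts throughout, and TUBB6 shrinks from 17.78% in WT to between 10.38% and 12.62% in the other groups.

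Across the 18 libraries the members fell into patterns that did not follow the alpha and beta families. As a description over libraries that share groups and scaling, Pearson's r of log2 CPM was 0.98 for TUBA1B with TUBB, 0.97 for TUBA1B with TUBA1C, 0.97 for TUBB with TUBB4B and 0.89 for TUBA1A with TUBB6. It was -0.80 for TUBA4A with TUBB3 and -0.77 for TUBB2B with TUBB6. Among 13990 coding genes outside the 10, those most like TUBA1B over the 18 libraries were KIFC1 (r = 0.996), ANLN (0.995), CCNB2 (0.995), BIRC5 (0.994) and SPAG5 (0.994). Those most like TUBB were CDCA5 (0.994), AURKB (0.99), SMURF2 (0.987), TACC3 (0.987) and DNAJC9 (0.986).

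The genes around each tubulin gene were examined after the data had been seen, on GENCODE 29 positions for 13948 of 14000 coding genes tested. Within 5 Mb of TUBB6, 30 coding genes had a median log2 fold change of -0.57 in KO against WT, and 4 of them were lower than TUBB6 itself (-1.30). With the unlocalised form against WT, TUBB6 was at -0.84 and the median of its neighbours was -0.67. Around the other members that fell in KO, the neighbours' medians were 0.03 for TUBA1B (107 genes), TUBA1C (107) and TUBA1A (108), 0.12 for TUBA4A (55), 0.31 for TUBB (192) and 0.02 for TUBB4B (90). Around the members that rose, they were 0.23 for TUBB3 (49 genes, own log2 0.28) and 0.25 for both TUBB2A (37, own 0.14) and TUBB2B (37, own 1.30). The part of the region in the level of any member was not tested.

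**Figure D4:**
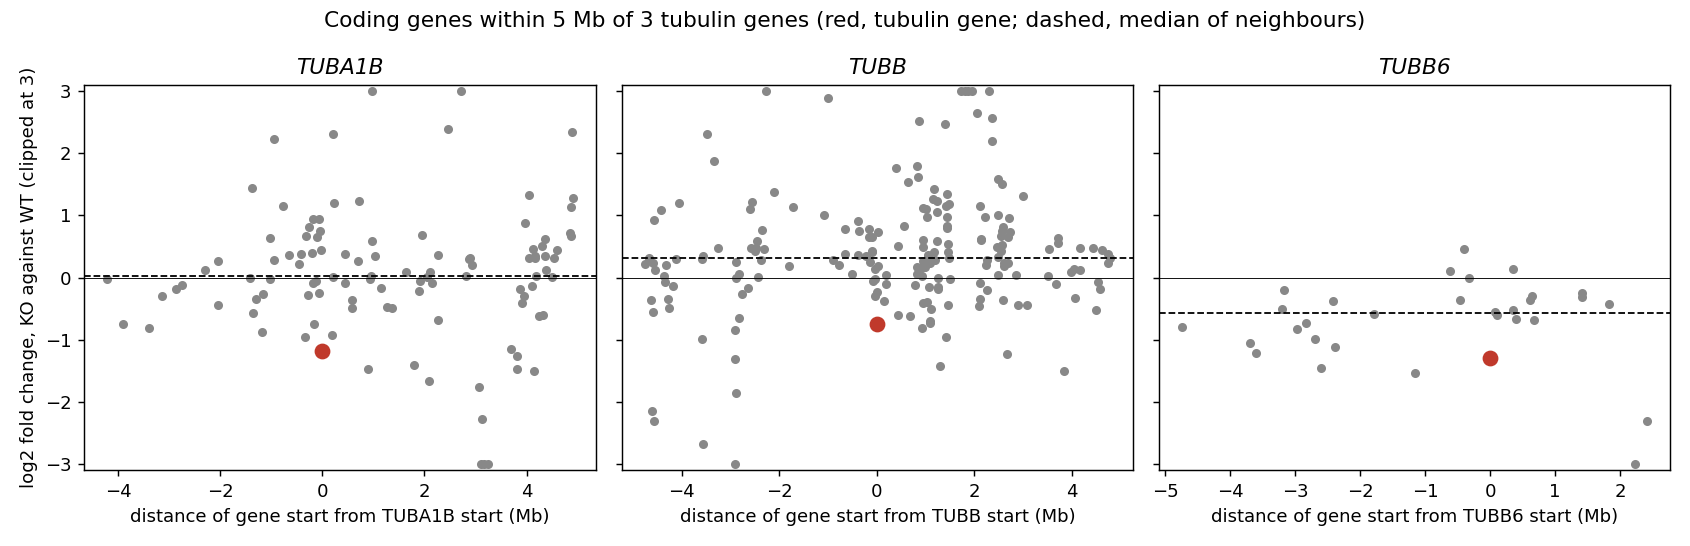
Log2 fold change in KO against WT (vertical axis, values beyond 3 drawn at 3) of coding genes within 5 Mb of TUBA1B, TUBB and TUBB6, by distance from the tubulin gene's start in Mb. The dashed line is the median of the neighbours, which lies at 0.03, 0.31 and -0.57; the red point is the tubulin gene.

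Genes that act on tubulin were taken from 7 lists chosen with earlier results of these data known, and up to 3 genes per list are named for each of 2 comparisons, those with the largest changes among the genes that passed the test at an average log2 CPM of at least 1. Of the 27 microtubule-associated and plus-end proteins, 18 fell and 5 rose in KO (median -0.56), where 36.8% of all genes tested fell and 35.9% rose. With guanosine against KO, 16 rose and 3 fell (median 0.32), where 27.3% of all genes rose and 29.2% fell. PRC1, which bundles antiparallel microtubules in the spindle midzone, was 216.8 ± 3.3 CPM in WT, 50.85 ± 2.35 in KO and 150.5 ± 1.9 with guanosine. MAP7D3, which helps to recruit kinesin to microtubules, was 2.68-fold lower in KO than in WT (log2 -1.42). TPX2, a spindle assembly factor, was 2.2-fold higher with guanosine than in KO. MAP1A, a microtubule stabiliser best known from neurons, was 1.305 ± 0.0634 CPM in WT, 10.82 ± 1.14 in KO and 3.81 ± 0.592 with guanosine.

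Of the 13 stathmins and severing or depolymerising factors that passed the filter (16 listed), 9 fell and 1 rose in KO (median -0.38; 36.8% and 35.9% of all genes), and 10 rose and 2 fell with guanosine (median 0.39; 27.3% and 29.2%). KIF2C, a kinesin that takes tubulin off microtubule ends, was 209.4 ± 4.21 CPM in WT, 61.76 ± 2.06 in KO and 147.6 ± 3.6 with guanosine. STMN1, which sequesters tubulin dimers, was 562.8 ± 15 CPM in WT and 291.3 ± 6.22 in KO. KIF18B, which shortens astral microtubules, was 88.43 ± 6.16, 43.76 ± 0.645 and 110.7 ± 0.929 CPM in WT, KO and KO with guanosine. KIF18A, which limits chromosome oscillation in mitosis, was 1.81-fold higher with guanosine than in KO.

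Of the 12 genes of the gamma-tubulin complex and its anchors, which nucleate microtubules, 8 fell and 1 rose in KO (median -0.27; 36.8% and 35.9% of all genes), and 10 rose and 0 fell with guanosine (median 0.24; 27.3% and 29.2%). MZT1 was lower by log2 -0.61, PCNT by -0.53 and NEDD1 by -0.46 in KO, and TUBGCP3 was higher by 0.60, PCNT by 0.49 and MZT1 by 0.33 with guanosine. Of 12 other tubulins, 8 passed the filter, of which 4 fell and 2 rose in KO (median -0.10; 36.8% and 35.9% of all genes), and 2 rose and 1 fell with guanosine (median 0.12; 27.3% and 29.2%). TUBG1, the main gamma tubulin, rose by log2 0.50 with guanosine, and TUBE1 (-0.47) and TUBD1 (-0.40), tubulins of the centriole, fell in KO. TUBA3C, an alpha isotype best known from testis and with near-identical copies, had 2645 counts over the WT libraries and 0 in KO, so that, taking 3 counts over the whole KO group as the detection floor, it was at least 1020-fold lower. It had 0 to 2 counts in each of the other knockout-derived groups, and the median of the list was -0.10 with this gene at its bound. Since TUBA3C passed the filter through the WT libraries alone, its place among the 4 that fell was fixed by the filter.

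In the list of genes that degrade tubulin mRNA, TTC5 rose in KO. TTC5 was 17.89 to 19.58 CPM in WT and 28.44 to 29.82 in KO (log2 0.65 ± 0.044, adjusted p = 2.33e-10), and it was the 1 gene of 11 that rose. In the groups given guanosine or IMPDH2 it was 25.7 to 31.97 CPM, above every WT library. Of the rest, 9 fell in KO (36.8% of all genes fell and 35.9% rose), led by the CCR4-NOT subunits CNOT10 (log2 -0.82) and CNOT8 (-0.63). With guanosine against KO, 8 of 11 rose and 1 fell (median 0.13; 27.3% and 29.2% of all genes), led by CNOT3 (0.34), CNOT9 (0.33) and CNOT6 (0.19).

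Of 21 folding genes, 8 rose and 9 fell in KO (median 0.00; 35.9% and 36.8% of all genes), and 6 rose and 8 fell with guanosine (median -0.08; 27.3% and 29.2%). VBP1, a prefoldin subunit, was 93.41 ± 1.65 CPM in WT and 37.81 ± 1.51 in KO, and TCP1, a CCT subunit, was 465.9 ± 8.87 and 242.8 ± 10.7. PFDN6, another prefoldin subunit, stood 1.67-fold above WT in KO and was lower by log2 -0.44 with guanosine than in KO. ARL2, a regulator of the tubulin cofactors, and PFDN4 were lower with guanosine by -0.48 and -0.41. Of the 21 tubulin-modifying enzymes that passed the filter (22 listed), 12 rose and 3 fell in KO (median 0.16; 35.9% and 36.8% of all genes), and 9 rose and 6 fell with guanosine (median -0.02; 27.3% and 29.2%). TTLL7 (log2 -1.48), a polyglutamylase, and TPGS2 (-1.09), a polyglutamylase subunit, fell in KO, and TTLL1 (1.01), the catalytic subunit of that complex, rose. With guanosine, the detyrosinating enzymes VASH2 (1.08) and VASH1 (0.57) rose and TTLL1 (-0.60) fell against KO.

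**Figure D5:**
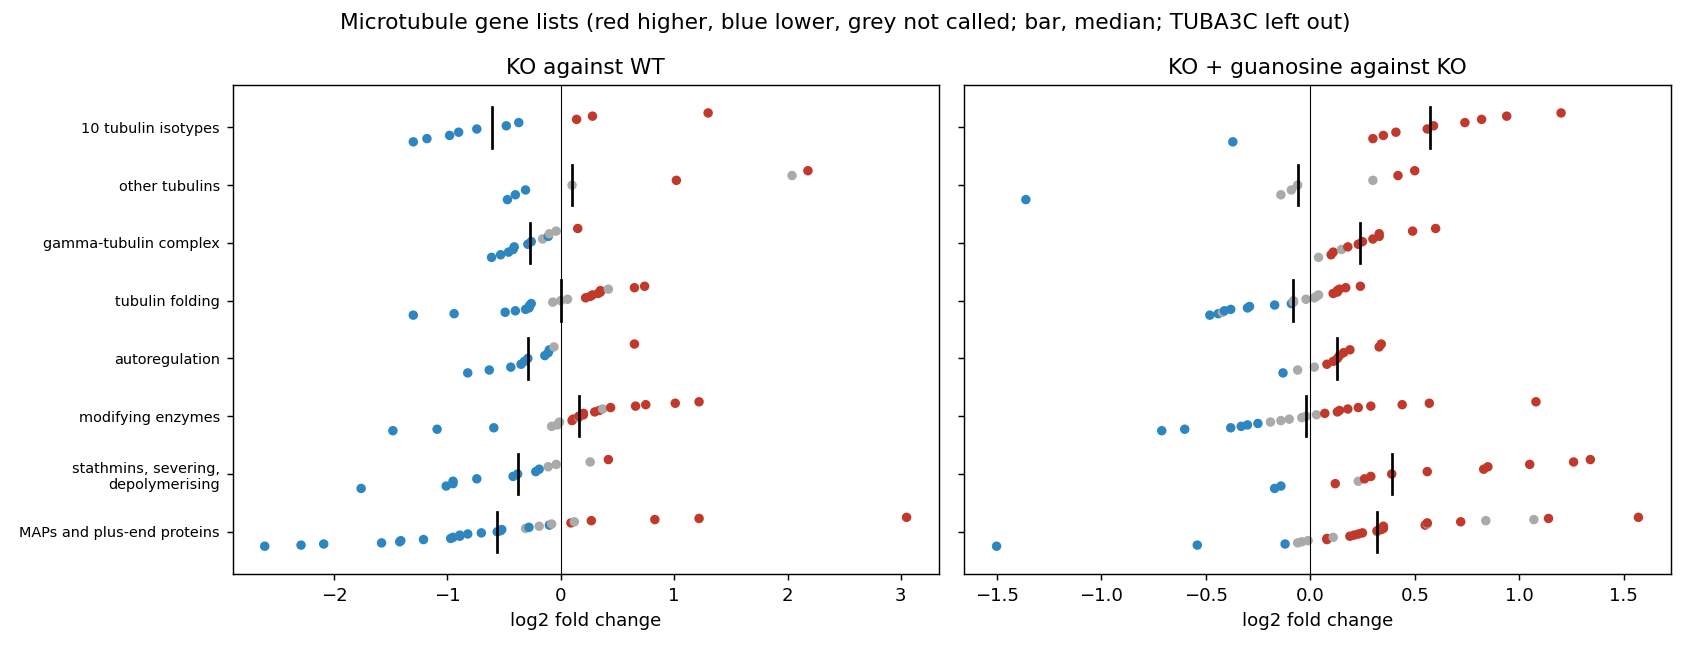
Log2 fold change (horizontal axes) of the 10 isotypes and of 7 lists of genes that act on tubulin, in KO against WT and in KO with guanosine against KO; red is higher, blue lower, grey not past the test, the bar is the median and TUBA3C is left out of the points and of the plotted median. The isotype medians are -0.61 and 0.57, and the folding genes spread to both sides.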

How the data were processed

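Stranded mRNA libraries were made from 500 ng of total RNA, per the labels' protocols. The submitters' processing notes name Salmon 1.10.0, Trim Galore 0.6.10 and genome build hg19; the annotation release is not given in the sources used here. The authors deposited estimated counts per transcript, 32.5% of them not whole, and TPM (a length- and depth-scaled level) per transcript. Estimated counts were summed to genes by symbol and gene ID and rounded, and TPM were summed to compare genes per unit length.

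All 18 libraries were fitted in edgeR 4.0.16 (R 4.3.3) with a mean per group, TMM scaling and the filterByExpr filter (19252 of 62749 genes kept, 39179 with any count), and tested by quasi-likelihood with Benjamini-Hochberg adjustment at 0.05. The common biological coefficient of variation was 4.87%. In counts simulated for KO against WT over 19252 genes, 83.6% of 67 genes changed by log2 0.5 were called, 97% of 67 changed by 1 and 100% of 66 changed by 2, with 5.6% of calls false. Only those genes were changed, with the spread taken from the fit, whereas 72.7% of genes were called in the data. The simulation therefore does not give the rate of false calls or the scaling error at that extent of change. Alternatives were DESeq2 1.42.0 (size factors or Wald test), library totals, no filter, a replicate block, only the compared libraries, protein-coding transcripts alone, a transcript length offset, and each library left out. Groups came from the labels, and no library was left out. Replicates differed beyond sampling noise (chi-square per gene 3.49 to 8.11). Counts from overlapping or near-identical genes were divided by the authors' estimation.

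The 10 members and all gene lists were chosen with earlier results of these data known. All members are named; lists name up to 3 genes per comparison by size of change at an average log2 CPM of at least 1. The comparison of guanosine with the unlocalised form and the look at neighbouring genes were added after the data had been seen. Coding sequences and positions are from GENCODE 29 (GRCh38) and windows of 250 bases before gene starts from RefSeq (GRCh38.p14).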

Additional observations from a re-analysis of the deposited data

Results flagged for a closer look

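The effects of the nuclear and the cytosolic form of IMPDH2 on KO cells differed in 4 of 10 tubulin genes when tested directly with edgeR's quasi-likelihood fit. TUBA1A was higher with the nuclear form by 0.14 on the log2 scale, in 3 of 3 nuclear against 3 of 3 cytosolic libraries, with adjusted p = 0.0185. Its adjusted p ran from 0.0017 to 0.123 over 14 alternatives, and 4 of them lost the call. TUBB2A differed by -0.27 (48.86 ± 0.914 against 58.8 ± 2.36 CPM, SD, n = 3 libraries each; edgeR adjusted p = 4.48e-05) and TUBB3 by -0.17 (63.01 ± 3.12 against 70.8 ± 2.47 CPM; edgeR adjusted p = 0.00357), and both kept their calls in 14 of 14 alternatives, with adjusted p of at most 0.00109 and 0.0246. TUBB4B differed by -0.06 (adjusted p = 0.0367), and 8 of 14 alternatives lost the call, with adjusted p from 0.00945 to 0.372. In the same comparison, 23.9% of all genes tested passed.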

How the results depend on the processing

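Under alternatives, 1540 fold changes of the 10 members were compared with the main fit (11 comparisons). Of these, 1443 kept their side of the threshold, 78 lost the call, 17 gained one and 2 called ones reversed. Where neither fit passed, a change of direction was counted as kept, as for TUBB2B with the unlocalised form against KO (log2 -0.39 to 0.15). In KO against WT all 140 kept their call and direction. The reversals were TUBB2B against KO with guanosine (log2 -0.09, adjusted p = 0.771) and with the cytosolic form (-0.08, 0.805), counting protein-coding transcripts alone; these were 82.87% ± 5.59 of its counts in KO and 61.83% ± 12.02 and 61.69% ± 7.88 in those groups (SD, n = 3).

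Counts of called members moved as follows, and the cause was not tested. With library totals, members lower with the unlocalised form against KO became 2 (from 1), members lower with guanosine against WT became 2 (from 4), and members higher with the nuclear form against WT became 2 (from 1), as they did with the length offset and with protein-coding transcripts alone. The length offset gave 1 lower (from 2) with the cytosolic form against KO, and 0 higher (from 1) for nuclear against cytosolic, as did fitting only those 6 libraries. Leaving out single libraries gave 1 to 2 lower with the cytosolic form against KO, 0 to 1 higher for nuclear against cytosolic, and 1 to 2 higher with the unlocalised form against WT.

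No pairing by replicate number was visible in the counts, which does not show whether same-numbered libraries were handled together. After each gene's group mean was subtracted from its log2 CPM, same-numbered libraries of compared groups correlated at -0.09 to 0.14. Of the 18 libraries, 4 correlated best with their own number. With the replicate block, members higher with the unlocalised form against WT became 1 (TUBB2A, adjusted p = 0.0564), TUBB2B lost its call for guanosine against the unlocalised form (0.0576), and KO against WT gave 6897 higher and 7058 lower genes. The length offset lowered all-gene calls for nuclear against cytosolic from 2571 higher and 2029 lower to 883 and 976, and for guanosine against the unlocalised form from 3582 and 3648 to 2270 and 1927. TUBB2B, with 98 to 133 counts per WT library, is the member whose depth limits precision most.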

Other observations

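The transcript make-up of TUBB3 also varied between groups. Transcripts annotated as retaining an intron held 0.83% ± 0.11 (SD, n = 3) of the TUBB3 estimated counts in WT, between 0.71% and 0.94%, and 2.51% ± 0.10 in KO, between 2.40% and 2.57%. The 4 other knockout-derived groups had means of 1.41% to 1.79%, and each of their libraries lay between 1.00% and 2.03%. Protein-coding transcripts held 92.83% ± 0.88 in WT and 90.07% ± 0.78 in KO. These shares rest on the authors' division of reads among overlapping transcripts, and no test was run on them.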
